A study of Drosophila melanogaster with 23 samples.

Results

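Transcript levels in cells held for 12 h at 14 °C were compared with those in cells held for 4 h at the same temperature. The samples were chosen by their titles alone, which gave 3 arrays of 12 h and 5 arrays of 4 h, or 8 of the 23 arrays of the series. All 32162 probes for genes were tested, and control spots were left out. S2R+ cells are an adherent Drosophila melanogaster line that was derived from late embryos and has features of hemocytes, the blood cells of the fly. In every group the cells first grew for 36 h at 25 °C. Those of the 12 h and 4 h groups were then moved in one step to 14 °C and sampled at the hour in their name. Other groups of the series, used here only to place the values, were cells sampled at the shift (0 h, 3 arrays), cells left for 12 h more at 25 °C (t12_25, 3 arrays), and cells after 24 h (5 arrays) and 72 h (4 arrays) at 14 °C. The 0 h and t12_25 arrays together are called the 25 °C arrays (n = 6). Replicate arrays are described as separate biological replicates in the study, whereas the labels name no separate cultures, so p-values measure the spread between these arrays.

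A fly has no means to keep its cells warm, and cultured fly cells take on the temperature of the medium at once. Enzymatic steps slow down in the cold, and a cell that goes on dividing has to keep transcription, replication and division in step at the lower rate. Before S phase, the origin recognition complex with Cdc6 and Dup (Cdt1) loads the MCM helicase onto DNA. In S phase, Cdc45 and the GINS complex activate the helicase, primase starts new strands and ribonucleotide reductase supplies the deoxynucleotides, and the transcripts of these factors are known to rise and fall with the cell cycle.

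Arrays of the 12 h group had 15581 to 16556 probes well above background and those of the 4 h group 15217 to 17517. Every array was hybridized on 1 of 7 slides. The 12 h arrays lay on slides 3, 2 and 1 (replicates 1, 2 and 3), and the 4 h arrays on slides 4, 7, 4, 7 and 2 (replicates 1 to 5), so that only slide 2 carried both groups. Slide accounted for 97.9% of the first principal component of all 23 arrays (42.9% of the variance), and group for 99.7% of the second (23.3%). The scanner software placed 12 h replicates 2 and 3 and 4 h replicate 5 outside its quality range. Of 12 hemocyte markers listed, only 3 (srp, ush and vkg) had a named probe. These were well above background on all 8 arrays, with a mean log2 intensity over their 4 probes of 11.64 to 11.76 at 12 h and 11.49 to 11.72 at 4 h. Markers of muscle (twi, wupA, 2 of 5 listed), germline (vas, nos, 2 of 4) and fat body (Yp1, 1 of 4) were above background on none of the 8 arrays. Of the neuron markers (2 of 4 listed), Syt1 was above it on all and brp on 1 array of each group. The other listed markers had no named probe and could not be assessed. RNA from whole cultures was measured, so fewer cells with a transcript and less of it per cell cannot be told apart.

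Between 4 h and 12 h at 14 °C a small set of transcripts moved. Transcripts for the chaperone partner DnaJ-1, the actin-binding protein Svil, the growth factor Pvf3 and the channel subunit Hk were higher at 12 h, whereas CG15097 and a set of DNA replication genes with Prim1, Mcm2, Sld5 and dpa were lower. Changes were mostly under 2-fold. The log2 difference of 12 h minus 4 h was fitted with limma over all 23 arrays, once without slide and once with slide as a block, and a probe was called where its Benjamini-Hochberg adjusted p was under 0.05 with the same direction in both fits. By this rule 226 probes were called (0.703% of all), 118 higher (0.367%) and 108 lower (0.336%) at 12 h. The share of higher calls was thus 52.2%, and it was 37.7% (740 higher and 1224 lower) with the deposited log2 values that had been adjusted for surrogate variables. Without slide, 472 probes (1.47%) passed, 239 higher (0.743%) and 233 lower (0.724%). With slide, 568 (1.77%) passed, 226 higher (0.703%) and 342 lower (1.06%), and 0 probes passed in opposite directions. Over all probes the median log2 difference was 0.01 without slide and 0.00 with slide. Of the 226 probes, 223 had every 12 h array on one side of every 4 h array, as did 10.8% of all probes (6.59% with 12 h above and 4.24% with 12 h below). The lowest call was 0.27 in size on the log2 scale, 104 of the 226 were under 1.5-fold, and 19 (0.0591%) reached 2-fold, 11 higher (0.0342%) and 8 lower (0.0249%). On slide 2 alone, 12 h replicate 2 minus 4 h replicate 5 had the sign of the call for all 226 probes. Over all probes, 64.4% had the sign of their own difference. This pair enters both fits and is the only one on a shared slide, so it weighs heavily in the fit with slide. The agreement is thus largely set by how the probes were chosen and is no separate support.

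**Figure D1:**
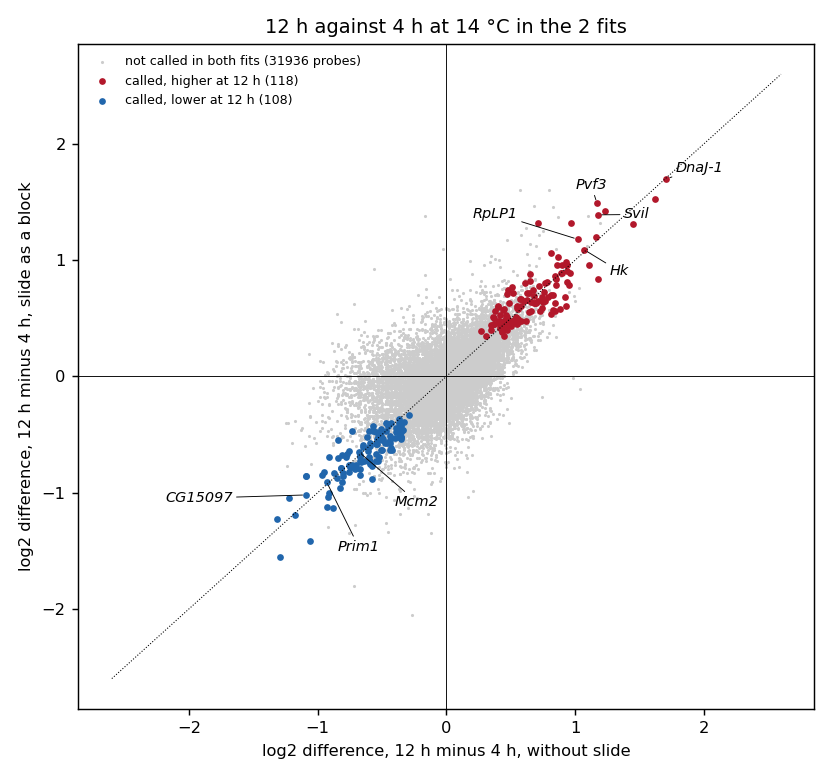
Log2 difference of 12 h minus 4 h for each of 32162 probes, without slide on the horizontal axis and with slide as a block on the vertical axis. The 118 probes higher at 12 h and the 108 lower lie in opposite corners, with DnaJ-1 farthest up at 1.71 and 1.70.

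These calls rested to a large part on 12 h replicate 2, the array that shares a slide with a 4 h array. Without it 18 probes were called in both fits, without 12 h replicate 1 125, without 12 h replicate 3 114 and without 4 h replicate 5 128. With all 6 arrays of the series outside the quality range left out, 1 array of 12 h and 4 of 4 h remained, slide could not be fitted, and 3 probes were lower and 0 higher without slide. The lone 12 h array was there assumed to vary like the other groups, and Sry-delta was the single named gene called. Of the 8 arrays, 12 h replicates 2 and 3 and 4 h replicate 5 also had the brightest negative control spots. The median log2 raw signal of these spots was 5.17 to 6.07 over the 12 h arrays and 5 to 5.74 over the 4 h arrays (difference 0.37, two-sided exact permutation p 0.25, smallest possible 0.018), and the part of this in the calls was not tested. A gene symbol could be given to 4069 of the 32162 probes and to 50 of the 226 called, which represented 44 genes. By the RefSeq annotation, the genes described most fully lie on several chromosome arms, with DnaJ-1, Svil and Prim1 on 3L, Pvf3 on 2L, Hk on X, CG15097, Sting and dpa on 2R, and Mcm2, Sld5 and Sry-delta on 3R.

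DnaJ-1, which encodes a J-domain partner (Hsp40) of the Hsp70 chaperones, had the largest difference of all called probes. Its log2 intensity was 12.59, 12.84 and 12.84 on the 12 h arrays, against 11.06, 10.74, 11.08, 10.83 and 11.55 on the 4 h arrays. The groups were separated by more than 1 unit, with 4 h replicate 5 the highest of its group. The means of 12.76 ± 0.14 (SD, n = 3) at 12 h and 11.05 ± 0.31 (SD, n = 5) at 4 h correspond to a 3.26-fold difference (log2 1.71, SE 0.23, adjusted p 0.000499 in limma without slide and 0.00511 with slide). A second DnaJ-1 probe was also called (log2 1.62), and the third passed only with slide as a block (1.10 without and 1.38 with slide). The 25 °C arrays averaged 12.20 ± 0.35 (SD, n = 6) for the first probe, so that the 4 h mean was the lowest of the course and the 12 h mean lay above 25 °C. Without 12 h replicate 2 the adjusted p with slide was 0.129.

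Svil encodes supervillin, a relative of villin and gelsolin that binds actin filaments. On the 12 h arrays it was at 10.65, 10.92 and 10.85, against 9.78, 9.45, 9.77, 9.52 and 9.61 on the 4 h arrays. All 3 values at 12 h exceeded all 5 at 4 h, and the 25 °C mean of 9.15 was lower still. The difference was 2.27-fold (log2 1.18, SE 0.12, adjusted p 3.44e-05 without slide and 0.000531 with slide in limma), and the other Svil probe was called as well (log2 0.94). This brighter Svil probe and 1 of 2 probes for PNUTS, a nuclear subunit of protein phosphatase 1, were the named probes that stayed called when each of the 8 arrays was left out in turn. PNUTS, given here after its values had been seen, was at 11.58, 11.61 and 11.5 on the 12 h arrays, against 10.85 to 11.12 (median 11.03) on the 4 h arrays (log2 0.55, adjusted p 4.44e-05 in limma without slide). For PNUTS, 12 h was the group close to 25 °C (mean 11.42), and 4 h was below both.

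Pvf3, a ligand of the PDGF and VEGF receptor homologue Pvr, was at 9.38, 9.84 and 9.34 at 12 h, against 8.57, 8.22, 8.72, 7.95 and 8.26 at 4 h. Hk, the beta subunit of Shaker-type potassium channels, was at 9.04, 9.15 and 8.91 at 12 h, against 8.24, 7.79, 8.18, 7.52 and 8.06 at 4 h. For both genes every 12 h array was above every 4 h array, as on 6.59% of all probes. The 25 °C means of 7.61 and 7.33 were below both time points. The log2 differences were 1.17 for Pvf3 (SE 0.26, adjusted p 0.0222 without slide and 0.001 with slide in limma) and 1.07 for Hk (SE 0.20, adjusted p 0.00765 and 0.002). The other 2 Pvf3 probes did not pass without slide (log2 0.13 and 0.64). Without 12 h replicate 2 the call of Hk was lost (highest adjusted p 0.101), and that of Pvf3 was lost without any of the 12 h arrays and without 4 h replicates 2 or 4 (highest adjusted p 0.18).

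RpLP1, the acidic P1 protein of the ribosomal stalk, had probes that disagreed. One was at 9.99, 9.61 and 9.18 at 12 h, against 8.93, 8.86, 8.72, 8.12 and 8.22 at 4 h (log2 1.02, SE 0.19, adjusted p 0.00855 in limma). The other, which is annotated to a different transcript, differed by -0.01. The probe that differed was at 7.45 at 25 °C, and without 12 h replicate 1, 12 h replicate 2 or 4 h replicate 5 its call was lost.

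**Figure D2:**
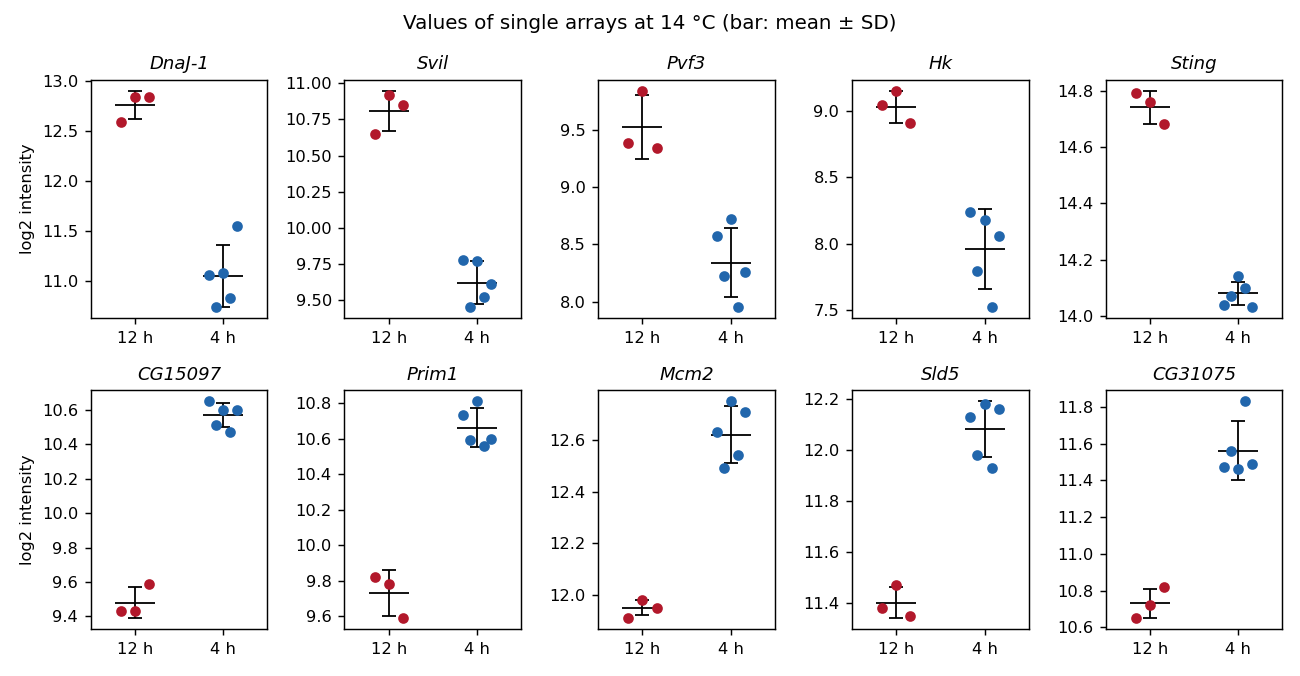
Normalized log2 intensity on each 12 h array (3 red points, left) and 4 h array (5 blue points, right) for 5 genes higher and 5 lower at 12 h, with the mean and SD as bars and a scale of its own for each gene. In none of the 10 genes do the groups overlap, as on 223 of the 226 called probes and 10.8% of all probes. The gap is widest for DnaJ-1.

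Other named genes higher at 12 h differed by smaller amounts. Sting, a sensor of cyclic dinucleotides in innate immunity, was at 14.79, 14.76 and 14.68 at 12 h, against 14.04, 14.07, 14.14, 14.10 and 14.03 at 4 h, with narrow spreads in both groups (log2 0.66, SE 0.07, adjusted p 6.74e-05 in limma without slide). It averaged 13.80 at 25 °C and 15.10 at 24 h, so that the 12 h value lay between 4 h and 24 h. BomBc2, a short secreted peptide of the Bomanin family made downstream of Toll, differed by the same amount (log2 0.66, adjusted p 0.00378), and its second probe went in the same direction (0.44, not called). Calls of Sting and BomBc2 were lost without 12 h replicate 2 or 4 h replicate 5 (highest adjusted p with slide 0.381 and 0.636). The netrin receptor gene unc-5 had 1 of 3 probes called (log2 0.81, the others 0.14 and 0.43). All 3 probes of CG34279 were called (0.84, 0.83 and 0.81, adjusted p 0.00628 to 0.0219). For CG34279 the lowest 12 h array was at 9.92 and the highest 4 h array at 9.48 with the brightest probe. CG34328 (0.81) and CG33642 (0.77) had 1 probe each. The calls of unc-5, CG34328 and CG33642 were lost without any of the 12 h arrays and without 4 h replicates 2, 4 or 5 (unc-5 also without 4 h replicate 3), and that of the brightest CG34279 probe without 12 h replicates 2 or 3 or 4 h replicate 5.

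Genes outside the naming rule, described here after their values had been seen, made smaller steps up. RalGPS, an exchange factor for the GTPase Ral, was at 12.14, 12.21 and 12.13 at 12 h, against 11.47, 11.53, 11.41, 11.73 and 11.66 at 4 h (log2 0.60, adjusted p 0.000499 in limma without slide). Lst, the peptide hormone limostatin, differed by 0.53, NKAIN by 0.51, CG33722 by 0.50, CG34155 by 0.47, CG13926 by 0.46 and Lasp, an actin-binding protein of muscle and other cells, by 0.40. In each of them all 12 h arrays were above all 4 h arrays, as on 117 of the 118 probes called higher and 6.59% of all probes. Lasp lost its call with any 1 array left out and RalGPS only without 12 h replicate 2 (adjusted p with slide 0.111), whereas the others lost it without 12 h replicates 2 or 3, for Lst, CG33722 and CG34155 also without 4 h replicate 5, and for Lst also without 12 h replicate 1.

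Among named genes, CG15097 had the largest difference downward. It was at 9.43, 9.43 and 9.59 at 12 h, against 10.65, 10.51, 10.60, 10.47 and 10.60 at 4 h. The gap between the nearest arrays of the groups was far wider than either group (9.48 ± 0.09, SD, n = 3, and 10.57 ± 0.07, SD, n = 5). The level at 12 h was 2.12-fold lower than at 4 h (log2 -1.09, SE 0.10, adjusted p 2.39e-05 without slide and 0.000874 with slide in limma). The 25 °C arrays were at 8.98 ± 0.31 (SD, n = 6), below both groups, and later groups stayed near the 12 h level (9.66 at 24 h and 9.51 at 72 h). CG15097 thus stood highest at 4 h. Without 12 h replicate 2 the adjusted p with slide was 0.0781.

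The rest of the named genes with lower levels at 12 h had mixed functions outside replication. Sry-delta, a zinc finger transcription factor, was at 10.24, 10.27 and 10.38 at 12 h, against 10.94, 10.94, 10.88, 11.08 and 10.90 at 4 h (log2 -0.65, SE 0.06, adjusted p 2.39e-05 in limma without slide and 0.00195 with slide). It stood at 11.39 at 25 °C, so 4 h lay between 25 °C and 12 h, and its call was lost only without 12 h replicate 2. CG31075, a member of the amino acid catabolism list, was at 10.65, 10.72 and 10.82 at 12 h, against 11.47, 11.56, 11.46, 11.83 and 11.49 at 4 h (log2 -0.83, SE 0.13, adjusted p 0.00175). Its level at 25 °C was 11.96 and at 24 h 9.84, and leaving out 12 h replicate 2 gave an adjusted p of 0.309 with slide. The mitochondrial ribosomal protein gene mRpS11 was at 9.95, 9.8 and 9.7 at 12 h, against 10.51, 10.89, 10.51, 10.95 and 10.41 at 4 h, and there 4 h replicates 2 and 4, both of slide 7, were the highest. The difference of mRpS11 was -0.84 without slide and -0.55 with slide, and its second probe passed with slide only (-0.48 without it). For ash2, a subunit of histone H3 methyltransferase complexes, the same 2 arrays stood high and the difference was -0.73 without slide, -0.47 with slide and -0.31 on slide 2. Btk, a tyrosine kinase of the Tec family, had 1 of 2 probes called (log2 -0.67, adjusted p 0.00465) and nemy, of the cytochrome b561 family, 1 of 2 (-0.58, adjusted p 0.0232). The mRpS11, Btk and nemy calls were lost without 12 h replicate 2, those of mRpS11 and nemy also without 12 h replicate 3 and that of nemy without 4 h replicate 2, and ash2 stayed called only without 4 h replicate 5.

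Most S phase probes had lower values at 12 h. In a list of 53 probes for 37 genes that the study had curated from gene annotation, 7 probes (13.2%) were called lower at 12 h and 0 higher, where 0.336% and 0.367% of all probes were. The 7 genes were Prim1, Mcm2, Sld5, dpa, Orc6, Mcm6 and RnrS. The median log2 difference over the list was -0.37 without slide and -0.36 with slide, beside 0.01 and 0.00 over all probes, and 49 of the 53 probes were below 0, against 46% of all probes. On 25 probes all 12 h arrays were below all 4 h arrays, as on 4.24% of all probes, and on 0 they were all above. On slide 2 alone, from the pair of arrays that also enters both fits, the list's median was -0.39, beside 0 over all probes. Across the other ways of scaling the arrays the list's median stayed between -0.43 and -0.36 without slide and between -0.41 and -0.33 with slide. Called probes numbered 0 without 12 h replicate 2, 3 without 4 h replicate 5 and 6 or 7 with any other array left out, and the median was between -0.40 and -0.33 without slide. With each fit taken alone, 12 of the 53 probes passed lower without slide and 11 with slide, beside 0.724% and 1.06% of all probes.

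**Figure D3:**
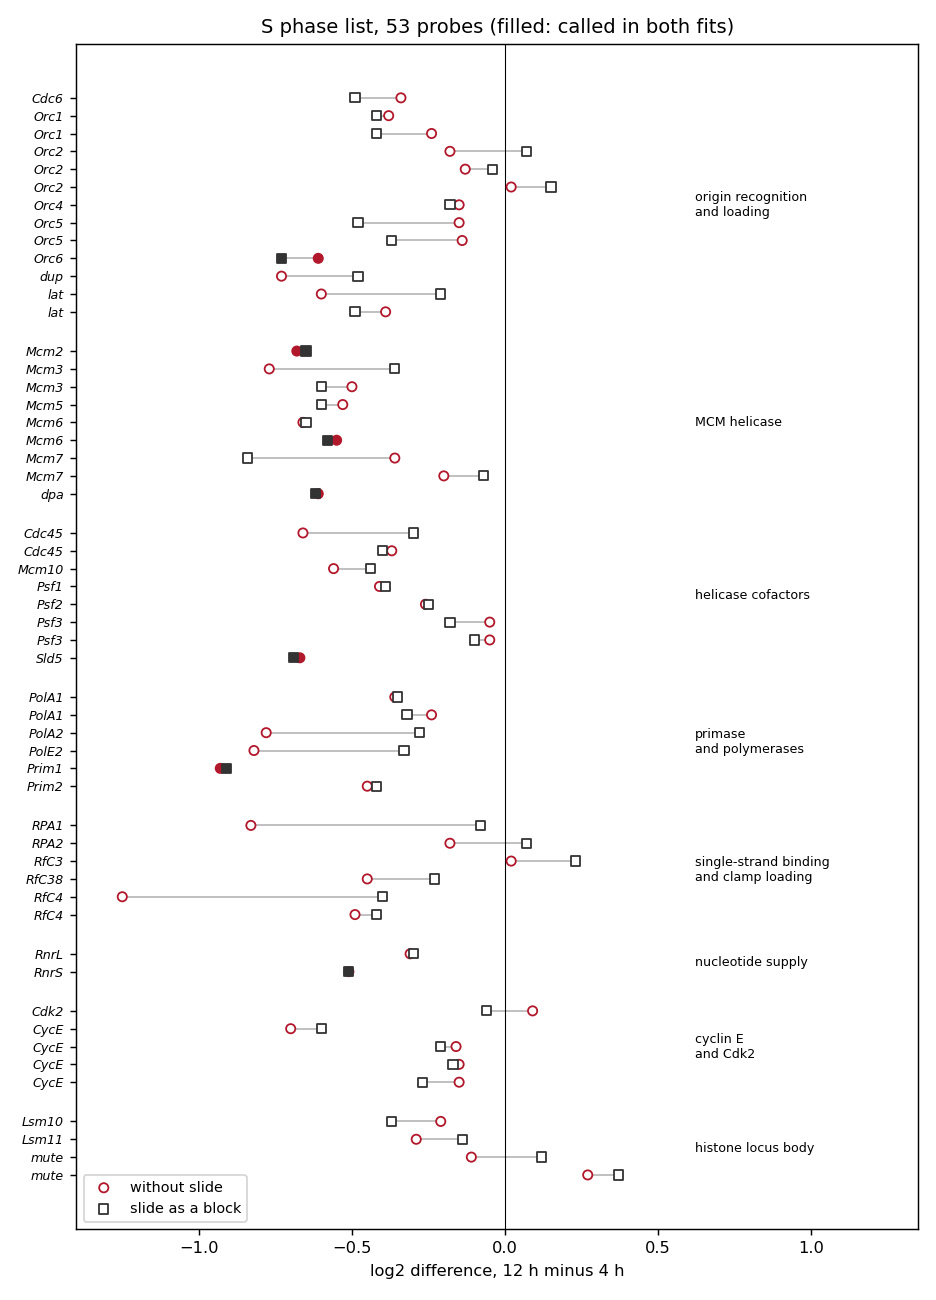
Log2 difference of 12 h minus 4 h for the 53 S phase probes by role, without slide (red circles) and with slide as a block (dark squares), joined by a line for each probe, with filled symbols for the 7 called in both fits. All 9 MCM helicase probes lie left of 0 in both fits, whereas the 6 probes for single-strand binding and clamp loading have a median of -0.47 without slide and -0.16 with slide.

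Of the MCM helicase, every one of the 6 subunit genes had a probe that passed lower in at least 1 of the fits. Over all probes, 0.724% passed lower without slide and 1.06% with slide. Mcm2 was at 11.91, 11.98 and 11.95 at 12 h, against 12.63, 12.49, 12.75, 12.54 and 12.71 at 4 h (log2 -0.68, SE 0.11, adjusted p 0.00218 without slide and 0.0127 with slide in limma). The gene dpa, which encodes Mcm4, was at 13.43, 13.59 and 13.58 at 12 h, against 14.21, 14.07, 14.13, 14.06 and 14.26 at 4 h (log2 -0.61, SE 0.10, adjusted p 0.00287 and 0.0141). In both, the gap between the nearest arrays of the groups was wider than the spread within either of them. Mcm6, outside the naming rule, was at 12.14, 12.14 and 12.08 at 12 h, against 12.74, 12.56, 12.79, 12.53 and 12.72 at 4 h (log2 -0.55, adjusted p 0.00281). Its second probe passed without slide only (-0.66). Mcm3 and Mcm5 had a probe each that passed with slide only (-0.60 for both), and Mcm7 did so with 1 of 2 probes (-0.84). The 9 MCM probes had a median of -0.55 without slide and -0.60 with slide. On 7 of them all 12 h arrays were below all 4 h arrays, as on 4.24% of all probes.

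Of the loading and activating factors, Sld5 and Orc6 were called lower in both fits, and the medians were -0.24 without slide for 13 probes of origin recognition and loading and -0.39 for 8 probes of helicase cofactors. Sld5, a subunit of the GINS complex, was at 11.38, 11.47 and 11.35 at 12 h, against 12.13, 11.98, 12.18, 11.93 and 12.16 at 4 h (log2 -0.67, SE 0.12, adjusted p 0.00581 without slide and 0.003 with slide in limma). Of its partners in GINS, Psf1 differed by -0.41, Psf2 by -0.26 and both Psf3 probes by -0.05, and none of these was called. Cdc45 (1 of 2 probes, -0.37) and Mcm10 (-0.56) passed without slide and not with it. Orc6, the smallest subunit of the origin recognition complex, was at 9.08, 9.48 and 9.52 at 12 h, against 9.91, 9.81, 9.91, 10.04 and 10.19 at 4 h, and its lowest array was 12 h replicate 1 (log2 -0.61, SE 0.14, adjusted p 0.0271 and 0.00351). The licensing factor gene dup passed without slide (-0.73, adjusted p 0.000463) and not with it (-0.48, adjusted p 0.0505). Orc1 had a probe that passed with slide only (-0.42, adjusted p 0.0364 in limma, and -0.24 without slide). Its other probe (-0.38 without slide) passed in neither fit. Probes for Orc2, Orc4 and Orc5 lay between -0.18 and 0.02 without slide, and none passed in either fit.

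Prim1, the catalytic subunit of primase, differed most of the 7. It was at 9.82, 9.78 and 9.59 at 12 h, against 10.73, 10.59, 10.81, 10.56 and 10.60 at 4 h, and its groups were the farthest apart of these genes (log2 -0.93, SE 0.13, adjusted p 0.000651 without slide and 0.00895 with slide in limma). Its partner Prim2 passed without slide (-0.45, adjusted p 0.0268) and just missed with slide (-0.42, adjusted p 0.059). RnrS, the small subunit of ribonucleotide reductase, is outside the naming rule and was at 14.08, 14.06 and 14.16 at 12 h, against 14.55, 14.52, 14.59, 14.71 and 14.66 at 4 h (log2 -0.51, adjusted p 0.000498 and 0.0209). The large subunit gene RnrL differed by -0.31 and was not called. The 6 probes for the single-strand binding protein RPA and the clamp loader RfC gave no call, with a median of -0.47 without slide and -0.16 with slide. RfC4, at -1.25, had the largest difference of the whole list and an adjusted p of 0.484, and its 4 h arrays ranged between 9.93 and 11.72 with those of slide 7 the highest. Cyclin E and Cdk2 (5 probes, median -0.15) and histone locus body genes (4 probes, -0.16) gave no call either. The brightest CycE probe was at -0.70 without slide (adjusted p 0.0599 in limma) and -0.60 with slide. The other CycE probes were at -0.16 or -0.15 without slide. Calls of Prim1, Sld5 and Mcm6 were lost only without 12 h replicate 2 (adjusted p with slide 0.175, 0.201 and 0.0917), those of Mcm2, dpa and RnrS also without 4 h replicate 5 (highest 0.395, 0.278 and 0.612), and that of Orc6 without any of the 12 h arrays or 4 h replicates 4 or 5 (highest 0.259).

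Averaged over its 53 probes, the S phase list was at 10.03, 9.99 and 9.93 on the 12 h arrays, against 10.40, 10.40, 10.43, 10.33 and 10.33 on the 4 h arrays. Arrays at 25 °C were at 10.46 to 10.57, so the 12 h arrays were far below all of them and the 4 h arrays a little below. The 24 h arrays were at 9.53 to 9.79 and the 72 h arrays at 9.62 to 9.73, both below 12 h and overlapping each other. The step between 4 h and 12 h was thus the largest between neighbouring times in the course, the mean of the list changing by -0.13 between 25 °C and 4 h, -0.39 between 4 h and 12 h, -0.29 between 12 h and 24 h and -0.01 between 24 h and 72 h. These means come from arrays on different slides.

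**Figure D4:**
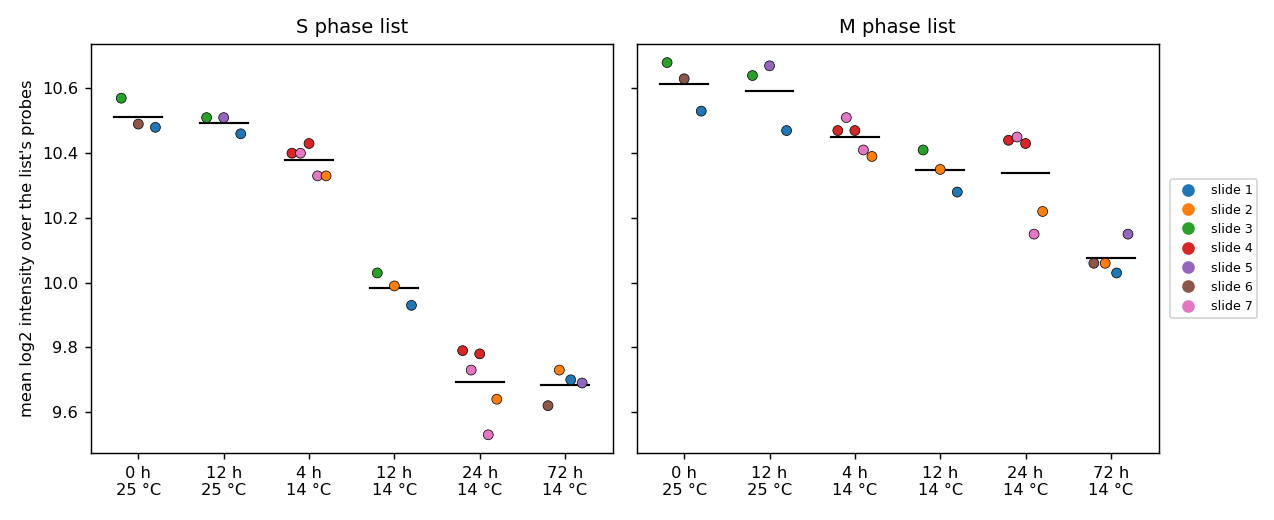
Mean log2 intensity over the probes of the S phase list (left) and M phase list (right) on each of the 23 arrays, in order of time with both 25 °C groups first, coloured by slide and with the group mean as a line. For S phase the 12 h arrays (9.93 to 10.03) lie clear of the 4 h arrays (10.33 to 10.43), whereas for M phase the groups meet (10.28 to 10.41 and 10.39 to 10.51).

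M phase transcripts gave 1 call in each direction. In the study's list of 45 probes, 1 probe (2.22%) was called higher and 1 (2.22%) lower at 12 h, where 0.367% and 0.336% of all probes were, and the medians were -0.11 without slide and -0.05 with slide. The one that rose was aurA, the kinase of centrosomes and spindle poles, at 12.30, 12.31 and 12.20 at 12 h, against 11.92, 11.82, 12.00, 11.68 and 11.89 at 4 h (log2 0.41, SE 0.09, adjusted p 0.0186 without slide and 0.0261 with slide in limma). At 25 °C aurA averaged 12.16, close to its 12 h level. The one that fell was Spc25, a subunit of the Ndc80 complex at kinetochores, at 11.31, 11.33 and 11.34 at 12 h, against 11.75, 11.64, 11.71, 11.58 and 11.80 at 4 h (log2 -0.37, SE 0.09, adjusted p 0.0479 and 0.0365). Of its partners in that complex, Ndc80 differed by -0.43 and Nuf2 by -0.30, neither called, and Mis12 of the neighbouring complex passed without slide only (-0.44, adjusted p 0.00202). Cyclin B was not called on any of its 3 probes (-0.35, 0.38 and 0.40), nor were polo, Cdk1, aurB or CycA. The Spc25 call was lost with any 1 array left out and that of aurA without any of the 12 h arrays or 4 h replicate 5.

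Calls among heat shock transcripts went in both directions. Of 19 probes, 1 (DnaJ-1, 5.26%) was called higher at 12 h and 2 (10.5%) lower, where 0.367% and 0.336% of all probes were. Both lower probes were for Hsp27, a small heat shock protein that holds unfolded clients. The median was 0.07 without slide and -0.11 with slide. The brighter called Hsp27 probe was at 9.53, 9.41 and 9.49 at 12 h, against 10.14, 10.00, 10.07, 9.89 and 9.84 at 4 h (log2 -0.51, SE 0.12, adjusted p 0.0295 without slide and 0.00705 with slide in limma). The second was at 9.07, 8.91 and 9.08 at 12 h, against 9.66, 9.67, 9.57, 9.67 and 9.50 at 4 h (-0.59), and the remaining 2 probes differed by -0.47 and -0.41, the first of which passed with slide only. At 25 °C the first probe averaged 9.88, so 4 h was near the starting level. The 2 groups at 25 °C differed, with means of 10.01 at 0 h and 9.76 at t12_25 for this probe and 9.69 and 9.33 for the second. Means below those of 0 h were thus also seen in cells left for 12 h more at 25 °C, a difference that was not tested. Without 12 h replicate 2 all 3 calls of this list were lost. The first Hsp27 probe was also lost without 12 h replicates 1 or 3 and without 4 h replicates 1, 2 or 3.

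The inducible Hsp70 genes, which share near-identical copies that these probes do not fully separate, gave no call. The probe for Hsp70Aa and Hsp70Ab was at 9.30, 9.31 and 10.58 at 12 h, against 8.21, 7.91, 7.93, 9.62 and 9.76 at 4 h. Here 12 h replicate 3 and 4 h replicates 4 and 5 were far above the others of their groups, and the groups overlapped. The difference was 1.04 without slide (adjusted p 0.527) and -0.11 with slide. Hsp68 was at 9.73, 9.41 and 9.37 at 12 h, against 8.34, 9.27, 8.37, 9.39 and 8 at 4 h, where the arrays of slide 7 stood high. It passed with slide as a block (log2 1.46, adjusted p 1.22e-05) and not without (0.83, adjusted p 0.621). Hsp23 likewise passed only with slide (-1.80, adjusted p 0.028, and -0.72 without slide). Hsp26, Hsp22, Hsp60A, Hsp67Ba and Hsp67Bc did not pass in either fit, with differences between -0.46 and 0.31 without slide.

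Lists of metabolism and protein turnover held at most 1 called probe each, where 0.703% of all probes were called. These were CG31075 among 26 probes of amino acid catabolism (median -0.09), CG3902, an acyl-CoA dehydrogenase, among 26 of beta oxidation (-0.09), Atg4a, a protease that processes Atg8, among 24 of autophagy (0.05), mRpS11 among 80 of the mitochondrial ribosome (-0.11) and RpLP1 among 134 of the cytoplasmic ribosome (-0.01). CG3902 was at 11.92, 11.96 and 12.03 at 12 h, against 12.39, 12.40, 12.39, 12.65 and 12.35 at 4 h (log2 -0.47, SE 0.09, adjusted p 0.00801 in limma without slide). Atg4a was at 8.88, 8.98 and 9.10 at 12 h, against 9.40, 9.29, 9.58, 9.67 and 9.72 at 4 h (-0.55, SE 0.12, adjusted p 0.0246), and 10.07 at 25 °C. The groups did not overlap for either gene, as on 10.8% of all probes. Their calls were lost without any of the 12 h arrays. That of CG3902 was also lost without 4 h replicates 1, 3 or 5 and that of Atg4a without 4 h replicates 3 or 4. Oxidative phosphorylation (132 probes), insulin and TOR signaling (64), proteasome (49), glycolysis (33), the TCA cycle (32), lipid metabolism (29) and the peroxisome (28) had 0 called probes, with medians between -0.09 and 0.08 without slide. In these 7 lists, 3 probes passed without slide and 2 with slide, all of them lower, beside 1.47% and 1.77% of all probes. Medians of the cytoplasmic ribosome, oxidative phosphorylation and glycolysis lists changed sign between scalings, as did that of autophagy with slide as a block, so no direction is given for them.

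Smaller lists written for this comparison held few named probes, and their counts stand beside 0.703% of all probes called, 0.367% higher and 0.336% lower. These lists were chosen with earlier results of these data known, so their counts are a description and no independent support. In a list of genes known from cold-treated flies (17 probes), 2 were called, both lower at 12 h, CG15097 and 1 of 3 probes for the dopamine transporter gene DAT. This DAT probe was well above background on all 5 arrays of 4 h and on none of 12 h, with measured means of 6.16 at 12 h and 6.51 at 4 h, and was at least 1.26-fold lower at 12 h (adjusted p 0.0173 in limma without slide), the 12 h value being bounded by the lowest signals above background. Prip, an aquaporin gene of that list, passed without slide (0.68, adjusted p 0.0198) and not with slide (0.25, adjusted p 0.661). Among 13 probes of immediate-early, JNK and MAPK genes, 1 was called, Pvf3, and the JNK target puc was not (-0.58 and 0.07), nor was rl, the ERK kinase (0.24, and 0.67 with an adjusted p of 0.0152 without slide and 0.103 with slide). The 6 probes for adhesion and extracellular matrix had the highest median of all lists, 0.45 without slide and 0.30 with slide, with 0 called in both fits. Of these, the integrin alpha chain genes mew and ItgaPS4 differed by 0.68 and 0.69 and the integrin partner Zasp52 by 0.77. Each had all 12 h arrays above all 4 h arrays, as did 6.59% of all probes. The ItgaPS4 probe passed in the fit with slide (0.83, adjusted p 0.00547), and mew and Zasp52 in neither fit. The tubulin gene betaTub97EF passed without slide (0.52, adjusted p 0.0219) and not with it. Lists for redox enzymes, the unfolded protein response, JAK/STAT, immune response, ribosome biogenesis, splicing regulators, V-type ATPase, hormone receptors and chromatin assembly, and those of the cell type markers, had 0 probes called. For DAT the call was lost without any of the 12 h arrays and without 4 h replicates 1, 3 or 5.

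Called probes were then followed through the other groups. Relative to the 25 °C arrays, the 118 probes higher at 12 h had medians of 0.28, 0.91, 0.99 and 0.86 after 4, 12, 24 and 72 h in the cold, and the 108 lower ones of -0.26, -0.83, -0.97 and -0.86. The values at 4 h and 12 h are set in part by how the probes were chosen. The 25 °C, 24 h and 72 h arrays also entered that choice, since they helped to estimate the slide terms and the spread in the fits, so their values are a description and no independent support. Between 24 h and 25 °C, 115 of the 118 (97.5%) were higher and 103 of the 108 (95.4%) lower, where 49.9% and 50.1% of all probes were. Between 72 h and 24 h, 51 of the 118 (43.2%) went higher still and 43 of the 108 (39.8%) lower still, where 49.4% and 50.6% of all probes did. Most of the set thus kept its side of 25 °C, and the shares that moved farther after 24 h were not far below those of all probes. At 4 h 22 of the higher probes, DnaJ-1 and PNUTS with them, were below the 25 °C mean, and 19 of the lower probes were above it. These 19 include the 2 lower probes, CG15097 being one, that had not fallen below the 25 °C mean at 12 h.

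**Figure D5:**
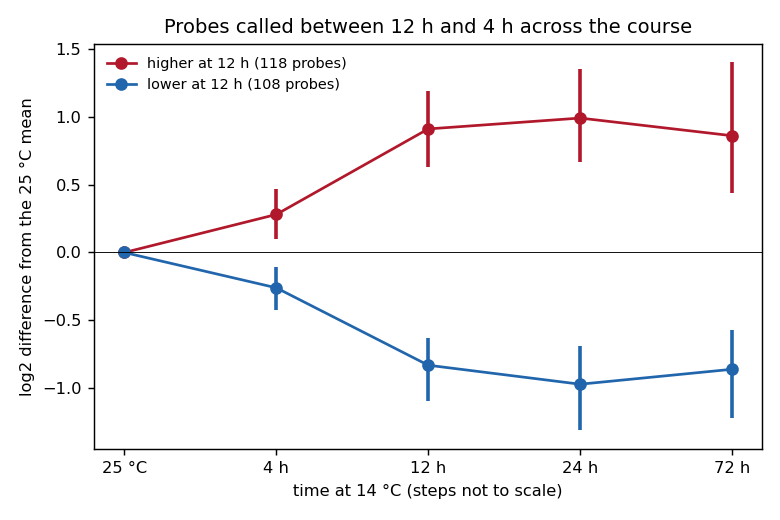
Median log2 difference from the mean of the 6 arrays at 25 °C for the 118 probes higher and the 108 lower at 12 h, with lines spanning the quartiles, at 4, 12, 24 and 72 h at 14 °C (steps not to scale). Both medians are within 0.28 of 25 °C at 4 h and near their farthest point from 12 h on.

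Most called probes could not be given a gene name, and the largest of those with a transcript identifier are given here. FBtr0070181 was at 9.04, 9.05 and 8.99 at 12 h, against 7.81, 7.53, 7.82, 7.23 and 7.51 at 4 h (log2 1.45, adjusted p 0.000321 in limma without slide), and its second probe was called too (0.65). FBtr0072501 differed by 1.18 and went on to 9.55 at 24 h and 10.05 at 72 h. FBtr0087564 was at 10.97, 11.15 and 10.86 at 12 h, against 12.28, 12.45, 12.16, 12.49 and 12.20 at 4 h (-1.32, adjusted p 3.43e-05). All 3 probes of FBtr0335125 were called (-1.29, -1.06 and -0.91), and for the brightest of them the 25 °C mean was 11.91, that at 4 h 11.12 and that at 12 h 9.83. In all 4 transcripts the 12 h and 4 h arrays did not overlap on the probe with the largest difference. The same was true of 223 of the 226 called probes and 10.8% of all probes.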

How the data were processed

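Total RNA of S2R+ cells was hybridized to 23 single-colour Agilent 4x44K arrays. The authors deposited scanner intensity values (Feature Extraction 10.7.3.1) and a table of log2 values that they had background corrected, quantile normalized and adjusted for surrogate variables, which was used here only as an alternative. From the intensity values, the median signal and local background median were corrected with normexp (offset 50), backgrounds over 3 times the array median being set to that median. The 43602 spots for genes were quantile normalized and put on the log2 scale, software-flagged outlier spots were left out, and the median was taken for each of 32162 probes. Group means were fitted over 23 arrays with lmFit and eBayes in limma 3.58.1 (R 4.3.3), without slide and with slide as a block, with Benjamini-Hochberg adjustment over all probes and a threshold of 0.05. The script was tested on simulated data.

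Genes were named as follows: the 12 highest and 12 lowest named genes called in both fits and well above background on all arrays of at least 1 group, by their brightest called probe, all called genes past 2-fold, and for each list up to 4 called members. The members and lists were chosen with earlier results of these data known. Symbols came from RefSeq and from the study's annotated lists. The number of arrays limits the precision. Alternatives covered background, offset, scaling, filters, blocks, weights and arrays left out. Promoter motifs were not analysed here. One gene that met the naming rule is not reported here. Plots were drawn with matplotlib 3.10.9 (Python 3.11.15).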

Additional observations from a re-analysis of the deposited data

Results flagged for a closer look

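In the 4 h group, 7 of 85 genes (8.24%) and 1 of 33 gene lists (3.03%) had 1 array apart from the other 4, by a gap over 0.71 of the range of the group, where chance gives about 5% of groups, or 1 in 20. The 4 h group is the only one of the 2 large enough to be looked at in this way.

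On 4 h replicate 4, CG31075 was at 11.83 (others 11.46 to 11.56) and the acyl-CoA dehydrogenase gene CG3902 at 12.65 (others 12.35 to 12.4). Both are genes called lower at 12 h, so that this array widens their difference. On the same array Mtpbeta, of mitochondrial beta oxidation, was at 13.53 (others 13.27 to 13.31), the proteasome subunit gene Prosbeta7 at 15.38 (others 15.71 to 15.77) and the ribosomal protein gene RpL27A at 18.08 (others 18.24 to 18.29). On 4 h replicate 5, the array outside the software's quality range, Syt1 was at 8.39 (others 7.61 to 7.8), the mean over the neuron markers at 7.37 (others 6.9 to 6.97) and the nuclear receptor gene Hnf4 at 12.22 (others 12.14 to 12.15).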

How the results depend on the processing

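Counts of called probes depended on the processing, whereas 0 of the 226 probes changed direction under any setting. Counts are given without slide, with slide and in both fits, beside 472, 568 and 226. They were 195, 151 and 64 with a normexp offset of 0, 187, 141 and 56 with processed signals scaled by the 75th percentile (which moved the median of all probes to 0.34 and 0.262), 4308, 2153 and 1964 with the log2 values of the authors, 269, 358 and 130 with limma-trend, 2066, 1334 and 712 with array weights, and 21, 42 and 19 at 2-fold or more. Without slide, 711 probes passed with scan date as a block and 3 without the arrays outside the quality range. With 1 array left out in turn, counts ranged between 147 and 529 without slide, 95 and 569 with slide, and 18 and 178 in both fits. With the replicate number as a block 829 probes passed, but the numbers did not pair the arrays (correlations of deviations -0.15, -0.34 and 0.26). Of the calls among named genes, 29 of 30 were lost without the arrays outside the quality range. The cause of these changes was not tested, except that fewer arrays were fitted where arrays were left out. Surrogate variables by sva were not run. Group spread over 3 and 5 arrays, and signals near background, limit small differences.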
